A study of Mus musculus with 51 samples.

Results

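Glycolysis and hypoxia-response genes were followed through every mouse stromal culture of the series. The group was a list of 36 genes given by symbol: 3 carriers of glucose and lactate, 16 enzymes of the glycolytic chain, 4 regulators of its flow, 5 genes of oxygen sensing and feedback, and 8 other genes known to be induced by low oxygen. A member was measured where a probe set of the array (a set of short probes read together) named that symbol and no other, and the probe set with the highest mean stood for the gene. This gave 33 of the 36 members, among 19938 genes measured by the same rule. Gapdh was named only in 25 probe sets that also name other genes, and Gpi1 and Eno1 were named by no probe set in the gene names used here.

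Glycolysis splits glucose into pyruvate in the cytosol, and lactate dehydrogenase and the lactate carriers dispose of the product when it is not burned in mitochondria. When oxygen falls, the prolyl hydroxylases encoded by Egln1 and Egln3 no longer mark the HIF transcription factors for destruction, and HIF raises many glycolytic enzymes together with genes for vessel growth, mitophagy, collagen hydroxylation and pH control. Blood stem cell niches are known as sites of low oxygen, and stromal lines that keep blood stem and progenitor cells alive in culture are used as models of them.

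The series comprised 51 Affymetrix Mouse Gene 1.0 ST arrays in 17 groups of 3. The lines came from the aorta-gonad-mesonephros region (AGM) of embryonic day 11 (CBAxC57BL/10)F1 embryos (UG26.1B6, UG26.3B5, AM14-1C4, AM30-3F4), from embryonic day 14.5 C57BL/6 fetal liver (FL; AFT024, BFC012, BFC, 2012, AFT011), from adult bone marrow (BM; BMC9 and BMC10 of the H2ts6 background, 14F1-1 of BALB/c) and from fetal calvaria of (C57BL/6xC3H)F2-op/op mice (OP9). By the labels' grade of support for haematopoietic stem and progenitor cells, UG26.1B6, AFT024, BMC9, OP9, 14F1-1, 2012, AM14-1C4 and AM30-3F4 were supportive, AFT011, BFC and BFC012 non-supportive, and UG26.3B5 and BMC10 less-supportive. These 13 lines were grown on gelatin at 33 °C and lysed at confluency, except that 14F1-1 and the first 2 OP9 arrays were labelled 37 °C. In the other 4 groups AFT024 or BFC012 was grown alone or together with bone marrow c-Kit+Sca1+Lin- (KLS) cells, which hold the blood stem cells, and the stroma was sorted after 4 days by its lack of CD45. Apart from OP9 each line is 1 clone by its label, so a difference between lines is a difference between clones, and nothing in the labels says that the 3 arrays of a group came from separate cultures. What the p-values measure is thus only how far such arrays scatter, and that scatter may be technical.

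The deposited values are log2 signals. Their quantiles fell into 4 separately normalized sets: set A with UG26.1B6, UG26.3B5, AFT024, BFC012, BMC9 and BMC10, set B with OP9 and BFC, set C with the sorted cultures, and set D with 14F1-1, 2012, AFT011, AM14-1C4 and AM30-3F4. Levels were compared only within a set and only for the same probe set. Arrays of a group correlated at 0.991 or more in sets A, B and D and at 0.972 or more in set C, and the members' median SD within a group was 0.04 to 0.18 in sets A, B and D against 0.21 to 0.37 in set C. The 14 haematopoietic markers were mostly dim: at most 1 of them was above the median gene of its set in all 3 arrays of any group.

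Promoter windows from RefSeq (mouse build GRCm38.p6, from 250 bases before to 50 bases after each annotated start) were found for 34 of the 36 members. Each was searched on both strands for ACGTG and GCGTG, the core letters of the HIF binding motif. The first of these also sits inside the E-box CACGTG, which reads the same on both strands and is then counted in each direction. At least 1 match stood in 31 of the 34 members (91.2%), against 46.7% of all 27025 genes with a window. Counted by window, 40 of 52 member windows (76.9%) and 43.8% of all 32851 windows held a match. Members were chosen as known hypoxia-response or glycolysis genes, so the share describes the list and is no evidence about these cultures. The windows of Tpi1, Eno2 and Gpi1 held none of these letters. The 250 bases before the start are printed for 4 members whose values carry the comparisons below: Bnip3, which held 5 matches, Ldha, with 5 in these bases and 7 in the whole window, P4ha2, with 3 and 4, and Egln3, with 1 match. Ldha had 2 windows, and the one with more matches (7 against 2) is printed. Capitals mark the matches.
Bnip3, chr7:138909507-138909756, minus strand: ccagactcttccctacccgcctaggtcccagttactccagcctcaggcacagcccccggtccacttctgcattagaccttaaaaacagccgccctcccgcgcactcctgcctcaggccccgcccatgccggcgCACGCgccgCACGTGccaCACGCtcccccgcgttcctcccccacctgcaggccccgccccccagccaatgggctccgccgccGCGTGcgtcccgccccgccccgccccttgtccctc
Ldha, chr7:46845554-46845803, plus strand: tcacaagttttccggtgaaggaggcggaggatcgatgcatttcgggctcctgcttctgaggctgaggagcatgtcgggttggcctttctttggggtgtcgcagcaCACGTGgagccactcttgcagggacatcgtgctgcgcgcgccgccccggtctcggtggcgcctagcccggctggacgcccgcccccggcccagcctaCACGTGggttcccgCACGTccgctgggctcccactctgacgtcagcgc
P4ha2, chr11:54100674-54100923, plus strand: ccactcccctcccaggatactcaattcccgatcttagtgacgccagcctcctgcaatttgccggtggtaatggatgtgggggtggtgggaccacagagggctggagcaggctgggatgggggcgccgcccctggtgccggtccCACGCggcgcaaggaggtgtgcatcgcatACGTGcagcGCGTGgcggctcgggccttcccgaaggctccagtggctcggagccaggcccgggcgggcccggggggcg
Egln3, chr12:54203875-54204124, minus strand: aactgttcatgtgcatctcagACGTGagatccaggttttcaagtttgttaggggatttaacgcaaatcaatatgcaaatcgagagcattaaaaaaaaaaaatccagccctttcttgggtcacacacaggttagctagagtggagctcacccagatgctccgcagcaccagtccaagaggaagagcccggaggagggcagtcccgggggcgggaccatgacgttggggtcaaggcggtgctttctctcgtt

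Most of the 33 measured members differed among the confluent lines. An F test over the 6 lines of set A (limma, Benjamini-Hochberg adjusted over all genes at 0.05, as in every test below) was passed by 30 members, where 55.4% of all genes passed. Over the 5 lines of set D it was passed by 27, where 56.9% of all genes passed. Hk1, Hk2 and Higd1a did not pass in set A (Hk2 adjusted p = 0.0502), and Hk1, Aldoc, Tktl1, Ankrd37, Car9 and Higd1a did not pass in set D.

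**Figure D1:**
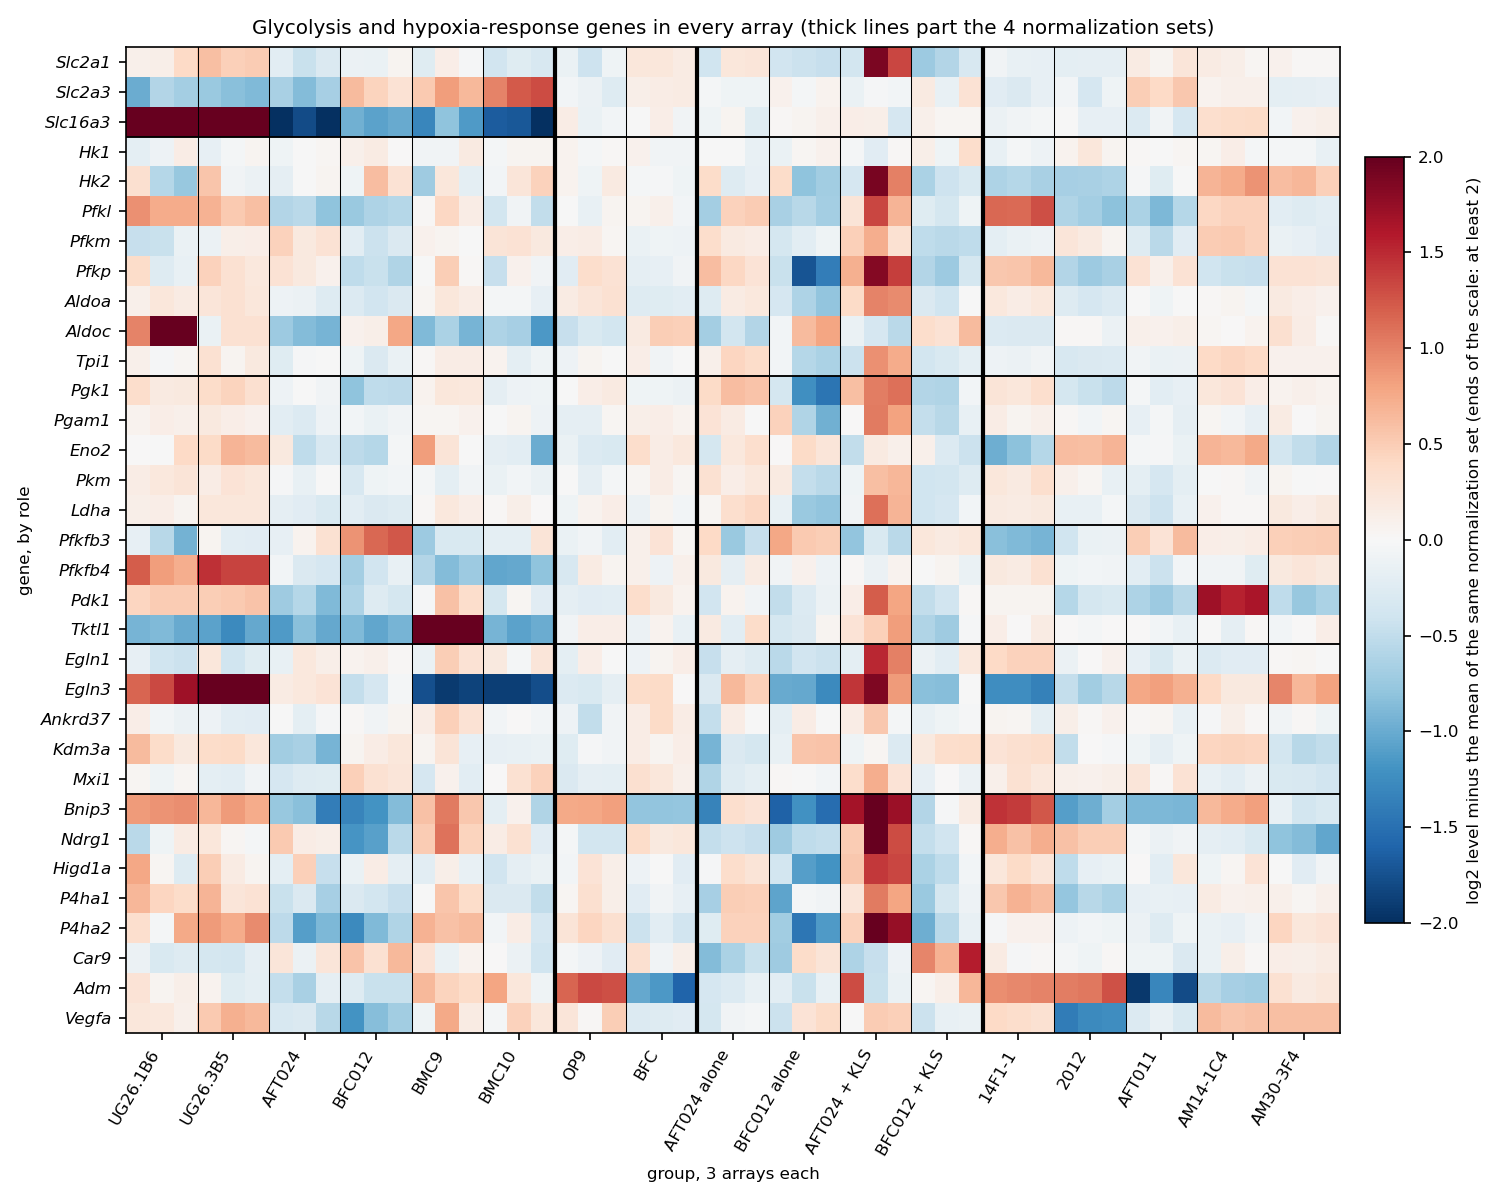
Level of each of the 33 measured members (rows, grouped by role) in each of the 51 arrays (columns, 3 per group), as the log2 level minus the gene's mean over all arrays of the same normalization set, with red above and blue below that mean. Most members are above the set mean in the UG26 lines and BMC9, in 14F1-1, AM14-1C4 and AM30-3F4, and in all 3 AFT024 arrays with KLS cells. Most are below it in AFT024, BFC012 and BMC10 of set A, in 2012 and AFT011, and in both sorted BFC012 groups.

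Among carriers, Slc16a3, which exports lactate, separated the AGM lines of set A from all others. Its log2 level was 11.91, 11.53 and 11.74 in UG26.1B6 and 12.37, 12.17 and 12.19 in UG26.3B5, and between 6.94 and 8.25 in the 12 arrays of AFT024, BFC012, BMC9 and BMC10. The line means spanned 5.18 (adjusted p = 2.64e-30). In set D the AGM lines AM14-1C4 (7.76 ± 0.03, SD, n = 3) and AM30-3F4 (7.45 ± 0.09) were also first and second in the order, but the whole range of line means was 0.59. Slc2a3, a high-affinity glucose carrier, was highest in the BM lines of set A (8.03 ± 0.17 in BMC10 and 7.53 ± 0.15 in BMC9) and lowest in UG26.3B5 (6.04 ± 0.07). In set D it went the other way, lowest in the BM line 14F1-1 (6.10 ± 0.07) and highest in AFT011 (6.80 ± 0.08). All set D arrays were below the median gene for it. The general glucose carrier Slc2a1 ranged over 0.84 in set A, highest in UG26.3B5, and over 0.34 in set D, highest in AFT011.

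Among enzymes of the chain some had narrow ranges. In set A the line means of Aldoa, Tpi1, Pgam1, Pkm and Ldha spanned 0.57, 0.35, 0.34, 0.36 and 0.48, and all 5 were highest in UG26.3B5. Their ranges in set D were 0.48, 0.70, 0.23, 0.49 and 0.47. Others spanned more: Pgk1, an ATP-making step, spanned 0.99 in set A and 0.71 in set D, Hk2, an inducible hexokinase, 0.61 and 1.41, Pfkp 0.85 and 1.24, and Pfkm 0.66 and 0.84. Aldoc, the aldolase best known from brain, spanned 2.83 in set A and 0.45 in set D. Eno2, the neuron-type enolase, spanned 1.03 and 1.48, and Pfkl, the liver-type phosphofructokinase, 1.44 and 1.88. Hk1 needs a caution, because its chosen probe set lists an accession that all 16 probe sets naming both Hk1 and Rpl17 also list. The other Hk1 probe set passed the F test in both sets (adjusted p = 2.54e-05 in A and 2.16e-11 in D), with means from 10.02 ± 0.11 in BFC012 to 10.76 ± 0.15 in UG26.3B5 and from 9.47 ± 0.09 in AM14-1C4 to 10.78 ± 0.04 in 14F1-1.

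Of the flow regulators, Tktl1, a transketolase-like gene of the pentose phosphate branch, was high in a single line: 11.58, 11.75 and 11.29 in BMC9 against 5.26 to 5.71 in the 15 other arrays of set A. Pfkfb4, which makes the activator of phosphofructokinase, was highest in UG26.3B5 (10.22 ± 0.06) and UG26.1B6 (9.77 ± 0.25) and lowest in BMC10 (7.88 ± 0.13). Pdk1, the kinase that shuts pyruvate out of the mitochondrial cycle, stood alone in set D at 9.58, 9.42 and 9.52 in AM14-1C4, with the 12 other arrays between 7.12 and 7.95. Its next line, 14F1-1, had a mean of 7.94 ± 0.01.

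Oxygen sensing was led by Egln3, a prolyl hydroxylase that is itself induced by HIF. Set A fell into 3 tissue tiers: 9.58 ± 0.27 in UG26.1B6 and 10.54 ± 0.06 in UG26.3B5, 8.40 ± 0.05 in AFT024 and 7.91 ± 0.22 in BFC012, and 6.35 ± 0.08 in BMC9 and 6.34 ± 0.06 in BMC10. No array of a tier overlapped another tier. Set D kept the BM line lowest (5.98 ± 0.07 in 14F1-1), but there the FL line AFT011 (8.03 ± 0.05) and the AGM line AM30-3F4 (8.08 ± 0.16) did not differ beyond their spread, and 2012 was at 6.69 ± 0.11. Egln1, the main oxygen sensor, spanned only 0.54 and 0.68.

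**Figure D2:**
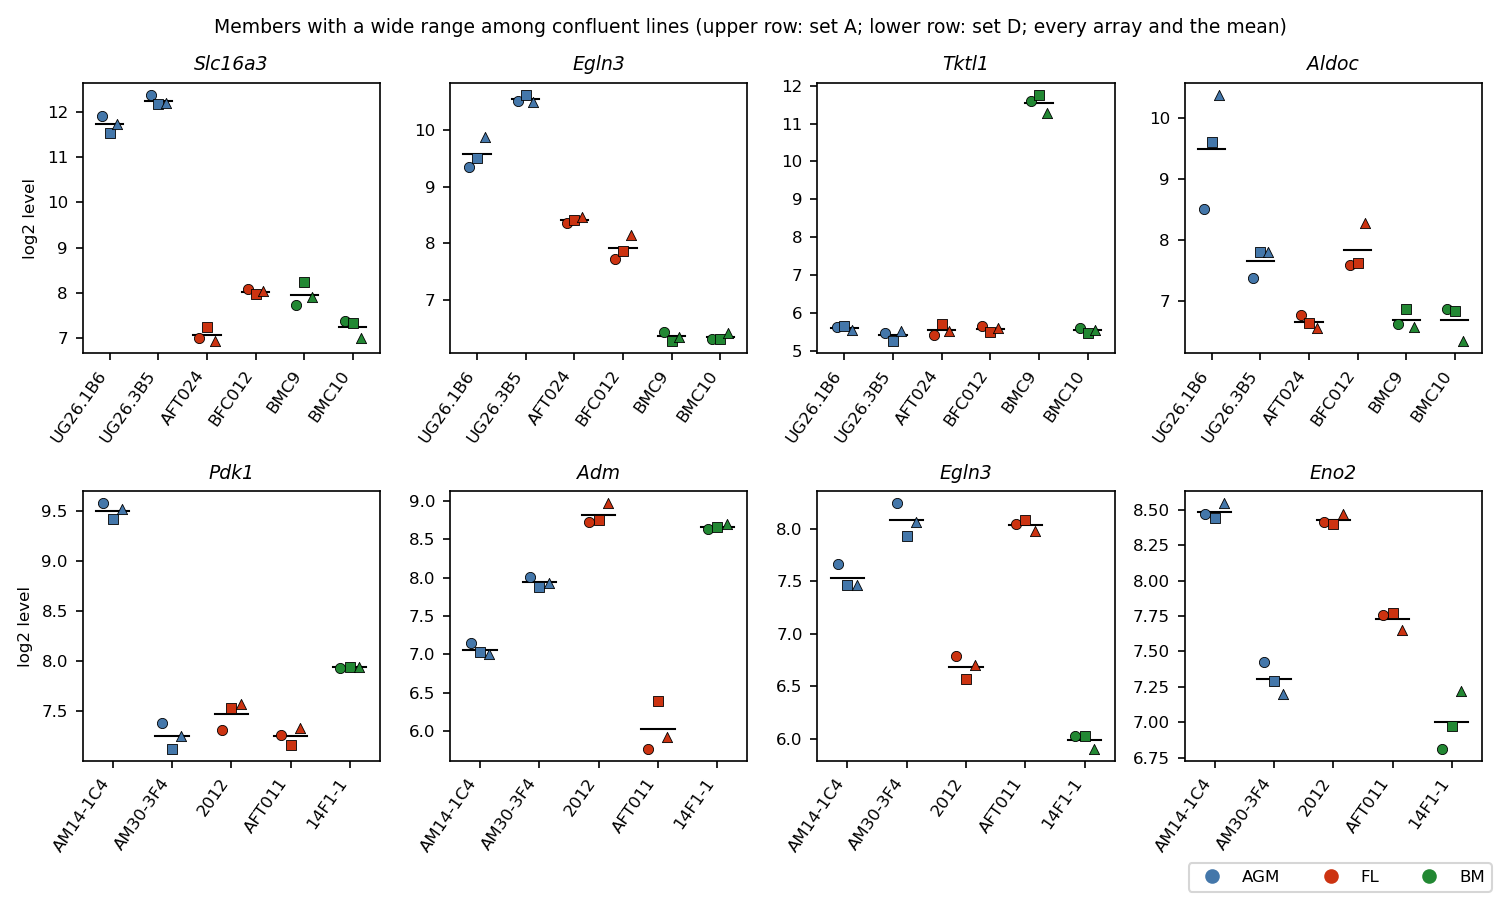
Log2 level of 7 wide-ranging members in every array (circle, square and triangle for replicates 1, 2 and 3, with a line at the group mean), coloured by tissue of origin, with Slc16a3, Egln3, Tktl1 and Aldoc across set A and Pdk1, Adm, Egln3 and Eno2 across set D. Slc16a3 and Egln3 are high in the UG26 lines, Tktl1 is high only in BMC9 among these 6 lines, and Pdk1 is high only in AM14-1C4 among these 5.

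Bnip3, Pfkl, Ldha and Vegfa were lowest in the fetal liver lines of sets A and D. This grouping by tissue was set after the values were seen and is given as a description. Bnip3, which drives mitophagy, was 8.66 to 9.29 in the 6 FL arrays of set A and 9.45 to 11.08 in the 12 others, and 8.01 to 8.44 against 8.75 to 10.56 in set D. Vegfa, the vessel growth factor, was 8.53 to 9.45 against 9.64 to 10.49 in set A and 8.70 to 9.96 against 10.41 to 10.74 in set D. For Ldha, which turns pyruvate into lactate, the values were 12.78 to 12.91 against 13.09 to 13.31 and 12.64 to 13.02 against 13.08 to 13.25. Pfkl was 9.43 to 9.69 against 9.74 to 11.14 and 8.53 to 8.86 against 9.16 to 10.71. In each case every FL array lay below every other array of its set. The second Bnip3 probe set gave the same separation, with 7.96 to 8.78 against 9.24 to 10.59 in set A and 7.74 to 8.16 against 8.26 to 9.66 in set D.

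The same complete separation in both sets held for 0.191% of all genes. In set A it held for 5 members (P4ha2 in addition), where 1.13% of all genes showed it, and in set D for 6 members (Pgk1 and P4ha1 in addition), where 2.32% did. No member lay above in either set, where 1.53% of all genes did in set A and 2.86% in set D. The FL mean was below the mean of the other lines for 26 members in set A (58% of all genes) and for 24 in set D (53.2%), and the members' median difference was -0.35 in set A and -0.21 in set D, against -0.02 and -0.01 for all genes. In these sets the FL lines are also the only C57BL/6 lines, so tissue and strain cannot be told apart, and 14F1-1 was grown at 37 °C. The FL line BFC of set B can be compared only with OP9. Bnip3 and Vegfa were lower in BFC, but Pfkl and Ldha overlapped and did not pass. Pfkl averaged 5.78 in BFC and 5.71 in OP9 (adjusted p = 0.665), and Ldha 8.90 and 8.98 (adjusted p = 0.41).

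**Figure D3:**
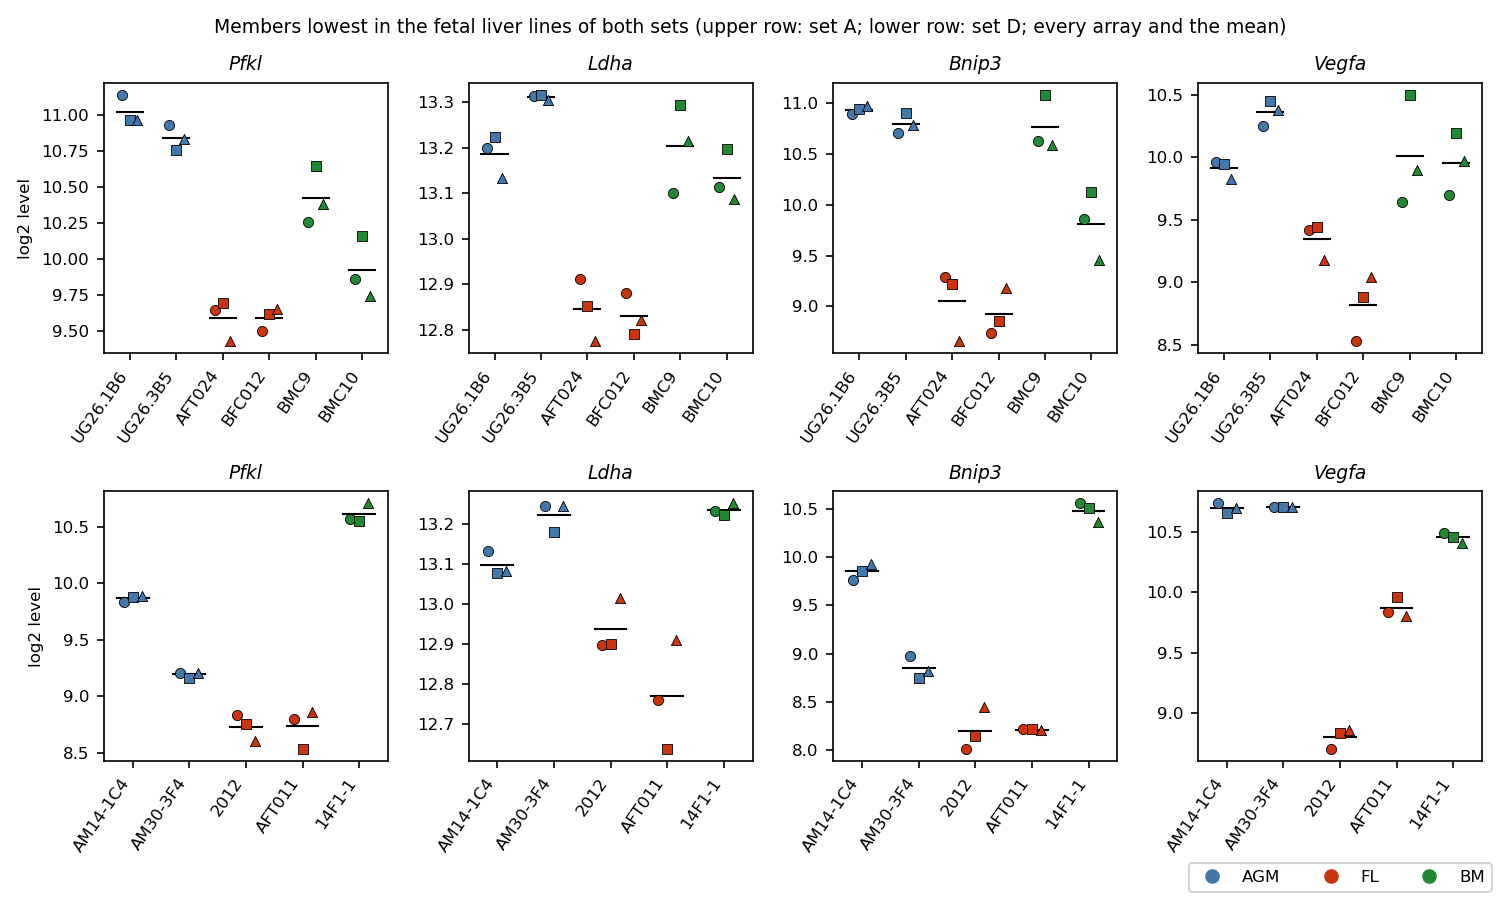
Log2 level of Pfkl, Ldha, Bnip3 and Vegfa in every array of set A and of set D, coloured by tissue, with a line at each group mean. In all 8 panels the FL arrays (red) lie below every AGM and BM array of the same set.

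Confluent lines of a different grade of support were then compared within tissue, which asks whether the genes follow the ability to hold stem and progenitor cells. All 39 confluent arrays shared 1 fit, and the difference is the more supportive line minus the other, on the log2 scale. The fit gives each gene 1 spread for all confluent lines. The members' median SD within a group was 0.10 to 0.18 in set A, 0.09 to 0.11 in set B and 0.04 to 0.09 in set D. The SE and p-value of a pair thus do not reflect the scatter of its 2 lines alone, and can be too small in set A.

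In the AGM pair, UG26.1B6 against UG26.3B5, 1 member was higher and 7 were lower in the supportive line, where 4.34% of all genes were higher and 4.22% lower (8.56% in either direction). Aldoc read 8.50, 9.60 and 10.36 in UG26.1B6 and 7.37, 7.81 and 7.81 in UG26.3B5. Every UG26.1B6 array was above, by 1.83 ± 0.23 (SE; adjusted p = 6.84e-07), though those arrays differed among themselves by more than the lowest of them exceeded UG26.3B5. Egln3 read 9.35, 9.50 and 9.88 against 10.51, 10.61 and 10.50, a difference of -0.97 ± 0.11 (adjusted p = 6.81e-08). The arrays of the 2 lines did not overlap, and UG26.3B5 was the tighter.

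The lactate exporter Slc16a3 was lower by less, at 11.91, 11.53 and 11.74 against 12.37, 12.17 and 12.19 (-0.52 ± 0.11, adjusted p = 0.0018). Pfkfb4 was 10.04, 9.68 and 9.57 against 10.29, 10.19 and 10.19 (-0.46, adjusted p = 0.0135), and Vegfa 9.96, 9.94 and 9.83 against 10.25, 10.45 and 10.38 (-0.45, adjusted p = 0.0377). In all 3 the supportive line lay wholly below. Pfkm, the muscle-type phosphofructokinase, was 9.84, 9.86 and 10.16 against 10.18, 10.41 and 10.43 (-0.39, adjusted p = 0.00258). Slc2a1 was 12.07, 12.10 and 12.37 against 12.58, 12.45 and 12.48 (-0.32, adjusted p = 0.0162). P4ha2, a collagen prolyl hydroxylase, was lower at -0.50 with overlapping arrays. Replicate numbers paired the arrays of this pair, and with the replicate as a block Slc2a1 no longer passed (adjusted p = 0.0519), while Hk2, Eno2 and Pfkfb3 were called lower and Adm higher. The count fell to 4 without the second UG26.1B6 array, 5 without the first UG26.3B5 array, 4 in a fit to set A alone and 3 in a fit to these 6 arrays. All 3 were lower, so Aldoc was not called in that last fit.

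Around the members, 3 of 35 other measured hypoxia genes were higher in UG26.1B6 (Tgfbi by 1.75 the most) and 3 lower (Ero1a, the disulfide-forming oxidase, by -0.78), and none of 9 genes of HIF regulation passed. Of 15 proliferation genes 4 were lower, Rrm2 by -0.73, and the part of growth in these differences was not tested.

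In the FL pair, AFT024 against BFC012, 6 members were higher and 9 lower in the supportive line, where 28.5% of all genes differed. The carriers were all lower. Slc2a3 read 6.21, 5.99 and 6.19 in AFT024 and 7.50, 7.31 and 7.14 in BFC012, a difference of -1.19 ± 0.10 (adjusted p = 8.63e-12), and Slc16a3 read 7.00, 7.26 and 6.94 against 8.08, 7.97 and 8.04 (-0.97 ± 0.11, adjusted p = 1.32e-08). Neither gene's arrays overlapped, and Slc2a1 was lower at -0.25 (adjusted p = 0.0296).

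Of the 3 phosphofructokinases 2 were higher and Pfkl did not pass, with Pfkp at 9.41, 9.32 and 9.21 against 8.61, 8.68 and 8.52 (0.71 ± 0.14, adjusted p = 0.000143) and Pfkm at 10.75, 10.49 and 10.58 against 10.09, 9.86 and 10.01 (0.62 ± 0.09, adjusted p = 5.3e-07). Aldoc went the other way from the AGM pair, at 6.77, 6.63 and 6.56 against 7.59, 7.62 and 8.27 (-1.17 ± 0.23, adjusted p = 0.000147). Pfkfb3, which makes the phosphofructokinase activator, was 7.78, 8.02 and 8.26 against 8.85, 9.10 and 9.19 (-1.03 ± 0.15, adjusted p = 7.92e-07). All these arrays were apart by line.

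Among HIF targets, Ndrg1, a stress-response gene, was 10.64, 10.27 and 10.25 against 8.95, 9.04 and 9.58 (1.20 ± 0.16, adjusted p = 3.06e-07). The histone demethylase gene Kdm3a was 8.52, 8.56 and 8.28 against 9.27, 9.36 and 9.45 (-0.90 ± 0.11, adjusted p = 2.47e-08). Ndrg1 was thus higher and Kdm3a lower in every AFT024 array. Pgk1, Vegfa and Egln3 were also higher, by 0.55, 0.53 and 0.50, and Mxi1, Car9 and Pdk1 lower, at -0.61, -0.39 and -0.31. Bnip3, Ldha and Pfkl, low in both lines, did not pass (adjusted p = 0.586 for Bnip3). Hk1 passed with its other probe set (0.37, adjusted p = 0.00717).

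Of the other hypoxia genes 11 of 35 were higher in AFT024 (Tgfbi by 2.21) and 4 lower, led by the carbonic anhydrase gene Car12 at -4.46. The HIF subunit genes split, with Epas1 lower at -0.86 and Hif1a higher by 0.36. Pdk4, a relative of Pdk1, was higher by 2.52 (adjusted p = 5.31e-12). BFC012 carried more signal of mesothelial genes, the 8 of which summed to 67.3 to 69.7 against 56.4 to 57.4 in AFT024, with 5 of them lower in AFT024 and 2 higher. Upk1b at -5.19 and Upk3b at -4.79 made up most of the gap. Their part in the member differences was not tested.

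In the BM pair, BMC9 against BMC10, 13 members were higher in the supportive line, where 7.28% of all genes were higher, and 2 lower, where 8.18% were (15.5% in either direction). Tktl1 at 11.58, 11.75 and 11.29 stood above 5.61, 5.47 and 5.54 (6.00 ± 0.09, adjusted p = 3.15e-31). All 3 BMC10 arrays lay below the first quartile of all genes in set A (5.72), where the signal may be background, so the size of this difference is not fixed and no fold is given. Bnip3 read 10.63, 11.08 and 10.59 against 9.86, 10.13 and 9.45, or 0.95 ± 0.14 (adjusted p = 6.12e-06). Eno2 was 10.28, 9.70 and 9.44 against 9.26, 9.23 and 8.46 (0.82 ± 0.18, adjusted p = 0.00131). Every BMC9 array was above every BMC10 array for Tktl1, Bnip3 and Eno2.

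P4ha1 and P4ha2, which encode alternative alpha subunits of collagen prolyl hydroxylase, an enzyme that stabilises secreted collagen, were both higher: P4ha2 rose from 9.55, 9.77 and 9.27 in BMC10 to 10.31, 10.20 and 10.25 in BMC9 (0.72 ± 0.15, adjusted p = 0.000496), and P4ha1 from 9.99, 10.01 and 9.80 to 10.28, 10.84 and 10.65 (0.66 ± 0.11, adjusted p = 5.33e-05). Slc16a3 was 7.74, 8.25 and 7.91 against 7.38, 7.34 and 7.00 (0.72 ± 0.11, adjusted p = 8.94e-06). Again no arrays overlapped. Ndrg1 was 10.63, 11.21 and 10.57 against 10.27, 10.43 and 9.90 (0.60, adjusted p = 0.00804), and Pfkl 10.26, 10.65 and 10.38 against 9.86, 10.16 and 9.74 (0.51, adjusted p = 0.000329). In both genes the second array was the highest of each line.

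Pdk1, Ankrd37, Pgk1, Slc2a1 and Aldoa were higher by 0.48, 0.33, 0.29, 0.27 and 0.22, and Slc2a3 and Mxi1 lower, at -0.51 and -0.41. Replicate numbers were taken to pair these arrays too, though less clearly (number 2 correlated at 0.116, unlike numbers at up to 0.194). Under the block Pgk1 (adjusted p = 0.0639), Aldoa (0.189), Slc2a1 (0.1), Ankrd37 (0.0588) and Mxi1 (0.053) did not pass. A fit to the 6 arrays alone called 6 members. Of the other hypoxia genes 8 of 35 were higher (Tgfbi 2.47) and 1 lower (Car12 -1.42), Hif1a was higher by 0.73, and Pdk4 by 2.82. The macrophage-type receptor gene Csf1r was higher by 1.00 in BMC9, as the only one of 12 macrophage markers to pass, and its part was not tested.

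In the second FL pair, 2012 against AFT011, 5 members were higher and 10 lower in the supportive line, where 27.6% of all genes differed. Adm, encoding the vessel-relaxing peptide adrenomedullin, read 8.72, 8.76 and 8.97 in 2012 and 5.77, 6.39 and 5.92 in AFT011 (2.79 ± 0.16, adjusted p = 6.2e-16). Of the AFT011 arrays 2 lay below the first quartile of set D (5.98), so the size is not fixed. Egln3 read 6.79, 6.57 and 6.70 against 8.04, 8.08 and 7.97 (-1.35 ± 0.11, adjusted p = 7.81e-12). Vegfa read 8.70, 8.84 and 8.86 against 9.84, 9.96 and 9.80 (-1.07 ± 0.14, adjusted p = 2.33e-07). These 3 secreted or oxygen-sensing genes did not move as a block: Adm was higher while Egln3 and Vegfa were lower in every 2012 array.

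Pfkp, the platelet-type phosphofructokinase, Pfkfb3 and Slc2a3 were lower. Pfkp was 8.26, 8.13 and 8.20 against 9.14, 8.96 and 9.13 (-0.88 ± 0.14, adjusted p = 7.71e-06), Pfkfb3 7.49, 7.75 and 7.77 against 8.38, 8.16 and 8.51 (-0.69, adjusted p = 0.000431), and Slc2a3 6.27, 5.98 and 6.24 against 6.82, 6.71 and 6.86 (-0.63, adjusted p = 5.36e-06). Hk2, P4ha1, Slc2a1, Pgk1 and Aldoa followed at -0.55, -0.50, -0.34, -0.30 and -0.26. Eno2 was higher, at 8.41, 8.40 and 8.47 against 7.76, 7.77 and 7.65 (0.70, adjusted p = 0.00373), as was Ndrg1, at 10.14, 10.04 and 10.04 against 9.51, 9.44 and 9.48 (0.59, adjusted p = 0.00528). Pfkm and Pkm were higher by 0.50 and 0.24, and Hk1 with its other probe set by 0.28 (adjusted p = 0.046). Other hypoxia genes split into 8 higher and 11 lower of 35. The 8 mesothelial genes summed to 73.3 to 73.5 in AFT011 against 56.3 to 58.5 in 2012, with an untested part in these results. Of these 8, 5 were lower in 2012 (Upk1b -5.81 and Upk3b -4.03 the most) and 1 higher. Of 14 haematopoietic markers 2 were lower in 2012 (Cd34 -5.08, Lcp1 -1.56) and none higher. Of 15 proliferation genes 5 were lower (Bub1 -0.62, Aurka -0.53) and 1 higher. The part of either list was not tested.

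OP9 and BFC differ in tissue, strain and, for the first 2 OP9 arrays, labelled temperature, so their comparison cannot separate support from these. OP9 had 7 members higher and 10 lower, where 34.4% of all genes differed. Adm read 6.72, 6.88 and 6.85 in OP9 and 4.53, 4.41 and 3.95 in BFC (2.52 ± 0.16, adjusted p = 4.9e-15), and Bnip3 7.79, 7.80 and 7.85 against 6.25, 6.25 and 6.26 (1.56 ± 0.14, adjusted p = 6.33e-11). Both genes were apart by far more than their spread, with 1 BFC array below the first quartile of set B (4.07) for Adm. The second Bnip3 probe set gave a smaller difference of 0.79 (adjusted p = 2.75e-05).

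P4ha2 was 6.97, 7.14 and 7.03 against 6.28, 6.50 and 6.33 (0.67, adjusted p = 0.000356) and Vegfa 6.87, 6.64 and 7.11 against 6.36, 6.36 and 6.40 (0.50, adjusted p = 0.00448), with Aldoa, P4ha1 and Pgk1 also higher, by 0.47, 0.32 and 0.20. On the lower side Aldoc was 4.60, 4.75 and 4.69 against 5.23, 5.54 and 5.52 (-0.75, adjusted p = 0.0104). Ndrg1 was 5.09, 4.77 and 4.77 against 5.51, 5.33 and 5.37 (-0.52, adjusted p = 0.00997). OP9 arrays lay wholly below for both. Egln3 was 4.01, 3.99 and 4.11 against 4.66, 4.67 and 4.30 (-0.51, adjusted p = 0.00033, with 2 OP9 arrays below that quartile), and Eno2 5.06, 4.92 and 4.87 against 5.53, 5.34 and 5.39 (-0.47, adjusted p = 0.0442). Ankrd37, Mxi1, Slc2a1, Pdk1, Slc2a3 and Pgam1 were lower, at -0.44 to -0.21. Pgam1 did not pass with its dimmest probe set (-0.08, adjusted p = 0.282), while Higd1a, a mitochondrial hypoxia gene, passed with its dimmer one (0.77, adjusted p = 9.06e-05) and not with the one chosen (0.23). Pkm, the pyruvate kinase gene, also passed only with its dimmer probe set (-0.27, adjusted p = 0.0139).

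Epas1, encoding the HIF-2 subunit, was higher in OP9 by 3.26 (adjusted p = 3.1e-23). Of 35 other hypoxia genes 14 were higher (Ppp1r3c 2.20, Lox 1.70) and 7 lower. Of 15 proliferation genes 13 were lower in OP9 and none higher, with sums of 120.2 to 124.4 against 132.1 to 133.1. Of 8 mesothelial genes 4 were lower and none higher (Upk1b -3.70, Upk3b -2.14). Of 14 haematopoietic markers 1 was lower (Cd34 -2.99) and 2 higher (Cd53 by 0.40 the most). The part of these lists was not tested.

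The lines AM14-1C4 and AM30-3F4 are both supportive, so their differences show how far clones of the same tissue and grade lie apart. Of the members 10 were higher and 5 lower in AM14-1C4, where 31.6% of all genes differed. The FL, BM and second FL pairs had as many members called, where 28.5%, 15.5% and 27.6% of all genes differed. In fits to the 6 arrays of each pair the count was 18 here and 12, 6 and 14 in those pairs. The equal counts are thus no result about the members. Pdk1 read 9.58, 9.42 and 9.52 against 7.38, 7.12 and 7.25 (2.26 ± 0.11, adjusted p = 1.97e-17). Eno2 read 8.47, 8.44 and 8.54 against 7.43, 7.29 and 7.20 (1.18 ± 0.18, adjusted p = 2.77e-06), and Bnip3 9.77, 9.86 and 9.93 against 8.98, 8.75 and 8.82 (1.00 ± 0.14, adjusted p = 6.56e-07). AM14-1C4 was higher in every array of all 3.

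Kdm3a was 9.59, 9.61 and 9.59 against 8.80, 8.60 and 8.66 (0.91, adjusted p = 1.65e-08). Phosphofructokinases split by isozyme: Pfkl was 9.84, 9.88 and 9.89 against 9.21, 9.16 and 9.21 (0.68, adjusted p = 1.28e-06), Pfkm 10.12, 10.14 and 10.08 against 9.47, 9.45 and 9.39 (0.67, adjusted p = 8.73e-08), and Pfkp 8.45, 8.41 and 8.38 against 9.14, 9.14 and 9.11 (-0.72, adjusted p = 9.74e-05). The liver and muscle forms were thus higher and the platelet form lower, without overlap. Adm was lower, at 7.14, 7.03 and 7.01 against 8.01, 7.88 and 7.93 (-0.88, adjusted p = 2.67e-05).

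Ndrg1, Tpi1, Slc16a3 and Slc2a3 were higher by 0.67, 0.32, 0.31 and 0.27, and Egln3, P4ha2 and Pfkfb4 lower, at -0.55, -0.43 and -0.34. Pdk4 moved opposite to Pdk1, at -3.71 (adjusted p = 2.62e-16), and Stc1, a hypoxia gene for a secreted hormone, was higher by 3.87. The macrophage markers Lyz2 and Csf1r were higher in AM14-1C4 by 4.00 and 1.06, the 12 macrophage markers summed to 79.9 to 80.7 against 74.3 to 75.4, and their part was not tested. The other 10 macrophage markers did not pass. Of 14 haematopoietic markers 2 were higher (Cd34 by 4.40 the most) and 1 lower (Lcp1 -1.79). Of 15 proliferation genes 3 were higher and 7 lower (Mcm6 -0.80, Rrm2 -0.67). The part of either list was not tested. With its other probe set Hk1 was lower, at -0.71 (adjusted p = 1.67e-06), and with its dimmest so was Pgam1, at -0.16 (adjusted p = 0.0253).

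**Figure D4:**
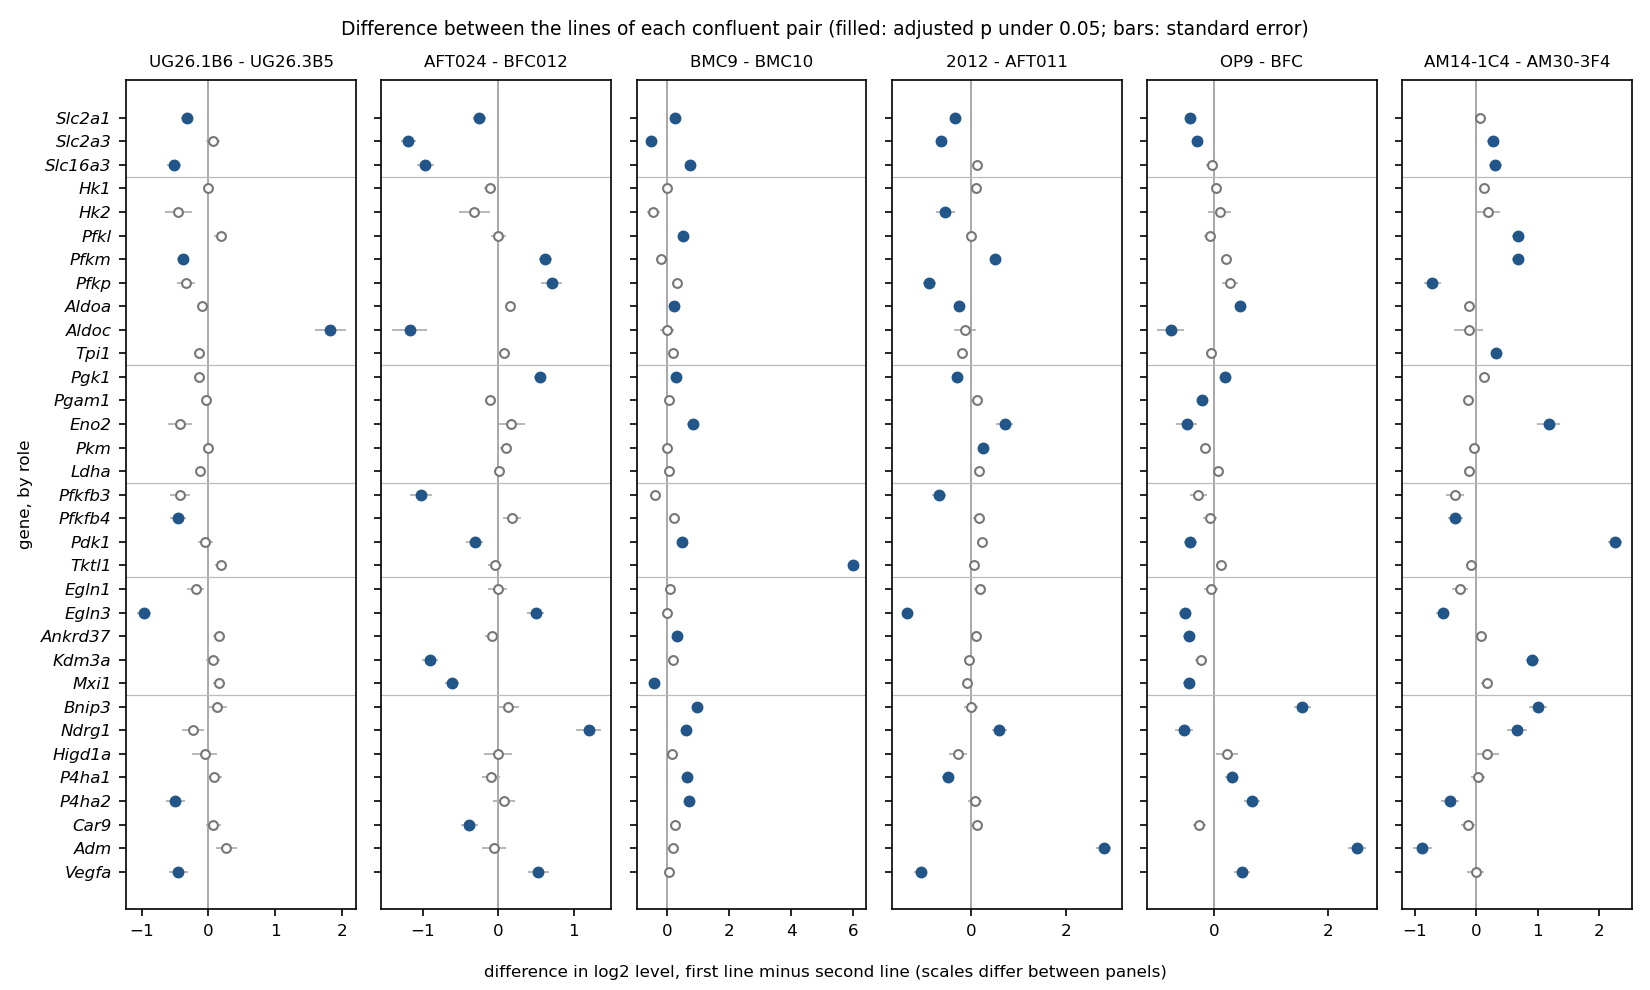
Difference in log2 level (first line minus second, with its standard error) for the 33 members in the 6 confluent pairs, with filled points where the limma adjusted p was under 0.05 and separate scales per panel. Tktl1 reaches 6.00 in the BM pair and Adm 2.79 in 2012 against AFT011, both against lines where signal was near the low end of all genes, Adm reaches 2.52 in OP9 against BFC and Pdk1 2.26 in the AM pair, and no row has filled points on the same side in all 6 panels.

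Support as such was tested on the means of 12 AGM, FL and BM lines, 7 supportive and 5 not, with tissue and normalization set as terms. BFC was then the only line of its set, so its term took up its value. No member and no gene passed (0% called). At an unadjusted p under 0.05 there was no member and 4.76% of all genes. The smallest adjusted p of a member was 0.895, and the median difference was -0.00 for members and 0.03 for all genes.

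The sorted cultures show the same AFT024 and BFC012 clones after 4 days alone or with KLS cells, in a fit to the 12 sorted arrays. Ptprc, which encodes the CD45 used in the sort, averaged 4.28 to 4.38 in the 4 groups, below the first quartile of all genes in the set (4.63), and the 14 haematopoietic markers summed to 66.7 to 70.0.

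Without KLS cells, 5 members were higher and 2 lower in AFT024 than in BFC012, where 7.32% of all genes differed. Pfkp read 7.59, 7.40 and 7.25 against 6.54, 5.24 and 5.59 (1.62 ± 0.32, adjusted p = 0.0125). Pgk1 read 11.53, 11.77 and 11.72 against 10.80, 9.93 and 9.69 (1.53 ± 0.26, adjusted p = 0.00538), and Egln3 6.14, 7.09 and 6.91 against 5.43, 5.41 and 5.16 (1.38 ± 0.31, adjusted p = 0.0215). AFT024 was higher in every array of these genes, and for Pfkp and Pgk1 the first BFC012 array was nearest to it.

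Higd1a was 9.52, 9.90 and 9.80 against 9.17, 8.44 and 8.34 (1.09, adjusted p = 0.0327), but its second probe set gave 0.39 (adjusted p = 0.449). Pfkm was 7.66, 7.48 and 7.44 against 6.95, 7.10 and 7.22 (0.44, adjusted p = 0.0415). Lower were Aldoc, at 5.32, 5.64 and 5.42 against 5.94, 6.63 and 6.79 (-0.99, adjusted p = 0.013), and Kdm3a, at 6.96, 7.60 and 7.53 against 7.73, 8.44 and 8.45 (-0.84, adjusted p = 0.0327). Apart from Higd1a these members had also passed with the same sign in the confluent FL pair, where 28.5% of all genes differed. That pair compares the same 2 clones, and the share of all genes called in both was not computed, so the overlap is no result about the members. Replicate numbers were taken to pair these arrays, though number 3 correlated at 0.466 and unlike numbers at up to 0.501. The block took Pfkm out (adjusted p = 0.0605) and brought in Bnip3 (0.0285) and P4ha2 (0.0483). The count was 12 without the first BFC012 array, 1 without its replicate 2 or its replicate 3, 2 without AFT024 replicate 3 and 4 without AFT024 replicate 2, 12 without both first arrays and 4 in a fit to these 6 arrays. Proliferation sums spanned 127.8 to 138.8 in AFT024 and 125.3 to 141.4 in BFC012 grown alone. Of 8 mesothelial genes 5 were lower in AFT024 and none higher (Upk1b -3.76, Upk3b -2.50), and the part of either list was not tested.

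With KLS cells 14 members were higher in AFT024 than in BFC012, where 6.09% of all genes were higher, and 2 lower, where 5.52% were (11.6% in either direction). The members' median difference was 0.83 against -0.03 for all genes. Bnip3 read 10.13, 10.62 and 10.18 in AFT024 and 7.88, 8.44 and 8.63 in BFC012 (1.99 ± 0.38, adjusted p = 0.0064). P4ha2 read 8.52, 10.11 and 9.79 against 7.08, 7.51 and 7.91 (1.97 ± 0.38, adjusted p = 0.00685), and Egln3 7.86, 8.31 and 7.29 against 5.59, 5.58 and 6.43 (1.95 ± 0.31, adjusted p = 0.0023). Each AFT024 array was above each BFC012 array in these 3, and the second Bnip3 probe set gave 1.75 (adjusted p = 0.0125).

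Pfkp was 7.68, 8.81 and 8.35 against 6.38, 6.25 and 6.63 (1.86 ± 0.32, adjusted p = 0.00377). Ndrg1 was 7.03, 8.62 and 7.83 against 6.05, 6.14 and 6.55 (1.58 ± 0.30, adjusted p = 0.00622), and Higd1a 10.08, 10.95 and 10.88 against 8.90, 9.03 and 9.48 (1.50 ± 0.27, adjusted p = 0.00451). The first AFT024 array was the lowest of its group for P4ha2, Pfkp, Ndrg1 and Higd1a. Pgk1 was 11.76, 12.18 and 12.25 against 10.57, 10.56 and 11.10 (1.32 ± 0.26, adjusted p = 0.00726). Car9, the surface carbonic anhydrase that handles acid, went the other way at 5.17, 5.33 and 5.69 against 6.76, 6.49 and 7.36 (-1.47 ± 0.29, adjusted p = 0.00755), and Aldoc was lower at -0.76.

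Slc2a1 was higher by 1.49 at an adjusted p of 0.0496 with overlapping arrays (7.92, 10.17 and 9.62 against 7.56, 7.71 and 7.97). Pfkm, Aldoa, Pdk1, Tktl1, Pkm and Mxi1 were higher by 1.03, 1.01, 1.00, 0.97, 0.74 and 0.54, and Pkm did not pass with its dimmer probe set (0.80, adjusted p = 0.0762). Hk1 passed with its other probe set (1.37, adjusted p = 0.00184), as did Pgam1 with its dimmest (0.87, adjusted p = 0.0463). The count was 10 without the first BFC012 array and 24 without the first AFT024 array. Of 35 other hypoxia genes 7 were higher (Tgfbi 2.79, Ero1a 2.05) and 1 lower, and of the 9 HIF regulators Cited2, a brake on HIF activity, was higher by 0.78. Mesothelial genes summed to 49.1 to 52.5 in BFC012 against 43.5 to 46.2 in AFT024, proliferation genes to 137.7 to 138.9 against 129 to 134. Of 8 mesothelial genes 3 were lower in AFT024 (Upk1b -2.86, Upk3b -1.47) and 1 higher. Of 15 proliferation genes 2 were lower (Tyms -0.83, Pcna -0.32) and none higher. The macrophage marker Cd68 was higher in AFT024 by 1.19 (adjusted p = 0.0386), the only one of 12 to pass, and the part of these genes was not tested.

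The presence of KLS cells was compared within each clone. In AFT024, 2 members were higher with KLS cells and none lower, where 0.351% of all genes differed. Ndrg1 read 7.03, 8.62 and 7.83 with KLS cells and 6.05, 6.11 and 6.06 alone (1.75 ± 0.30, adjusted p = 0.0374). Mxi1, which antagonises Myc, read 7.30, 7.67 and 7.23 against 6.36, 6.69 and 6.76 (0.80 ± 0.13, adjusted p = 0.0307). Bnip3 had the largest difference among members, at 10.13, 10.62 and 10.18 against 7.12, 8.81 and 8.73 (2.09 ± 0.38), and just missed the threshold (adjusted p = 0.0523, and 0.0683 with its second probe set). In all 3 genes every array with KLS cells was above every array without.

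Means were higher with KLS cells for 28 of the 33 members, where 51.4% of all genes were higher. For 11 members all 3 arrays with KLS cells were above all 3 without, where 8.07% of all genes were, and for none were they all below, where 6.39% were. Besides the 3 above these were Pfkp, Aldoa, Pdk1, Egln3, P4ha2, Kdm3a, Higd1a and Vegfa, with differences of 0.41 to 1.20 that did not pass (adjusted p from 0.161 to 0.611). At an unadjusted p under 0.05 there were 12 members, where 9.25% of all genes passed. The median difference was 0.47 for members and 0.32 for the 35 other hypoxia genes, of which none passed, against 0.01 for all genes.

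The call rested on few arrays. The count was 7 without the first AFT024 array with KLS cells, 1 without its replicate 3, 1 without the first AFT024 array grown alone, and 0 without the second array with KLS cells, without replicate 2 or 3 grown alone, or in a fit to these 6 arrays alone. The second array with KLS cells was the highest of its group for Bnip3, Ndrg1, Mxi1, P4ha2, Egln3 and Slc2a1. None of the 12 macrophage markers passed, and their median difference was -0.016, against 0.005 for all genes. Cd68, a lysosomal gene abundant in macrophages and 1 of these 12, averaged 8.11 ± 0.74 with KLS cells and 7.01 ± 0.41 alone. The haematopoietic marker sum was 67.8 to 68.3 with and 66.7 to 70.0 without, and Ptprc 4.38 ± 0.08 and 4.28 ± 0.03. The part of these genes was not tested.

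In BFC012 no member passed, where 0.883% of all genes did, and at an unadjusted p under 0.05 there were 4 members, where 10.2% of all genes passed. Bnip3 was again higher in every array, at 7.88, 8.44 and 8.63 with KLS cells and 6.85, 7.26 and 6.94 alone (1.30 ± 0.38, adjusted p = 0.201). Car9 was 6.76, 6.49 and 7.36 against 5.07, 6.16 and 6.05 (1.11 ± 0.29, adjusted p = 0.144). Pfkm was lower, at 6.79, 6.76 and 6.79 against 6.95, 7.10 and 7.22 (-0.31, adjusted p = 0.352). Means were higher for 17 members and lower for 16, where 45.8% of all genes were higher, with a median of 0.00. For 7 members all 3 arrays with KLS cells were above all 3 without, where 7.8% of all genes were, and for 2 they were below, where 9.46% were. The members above were Bnip3, Car9, Ndrg1, Egln3, Egln1, Pfkl and Adm. Ndrg1 was 6.05 to 6.55 with KLS cells and 5.81 to 6.04 alone, and Egln3 5.58 to 6.43 and 5.16 to 5.43. Pdk4, outside the list, was higher with KLS cells by 2.63 (adjusted p = 0.000938). The count was 1 without the first BFC012 array grown alone, and 2 without the first arrays of both groups grown alone.

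The effect of KLS cells was not shown to differ between the clones for any member. The interaction called 0 members and 0.0401% of all genes, and at an unadjusted p under 0.05 there were 5 members, where 7.85% of all genes passed. The smallest p belonged to Mxi1 (0.87 ± 0.19, adjusted p = 0.179), Pfkm (0.59 ± 0.16, adjusted p = 0.352) and Ndrg1 (1.47, adjusted p = 0.393), all with the more positive effect in AFT024. For Bnip3 the 2 effects, 2.09 and 1.30, share their sign.

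**Figure D5:**
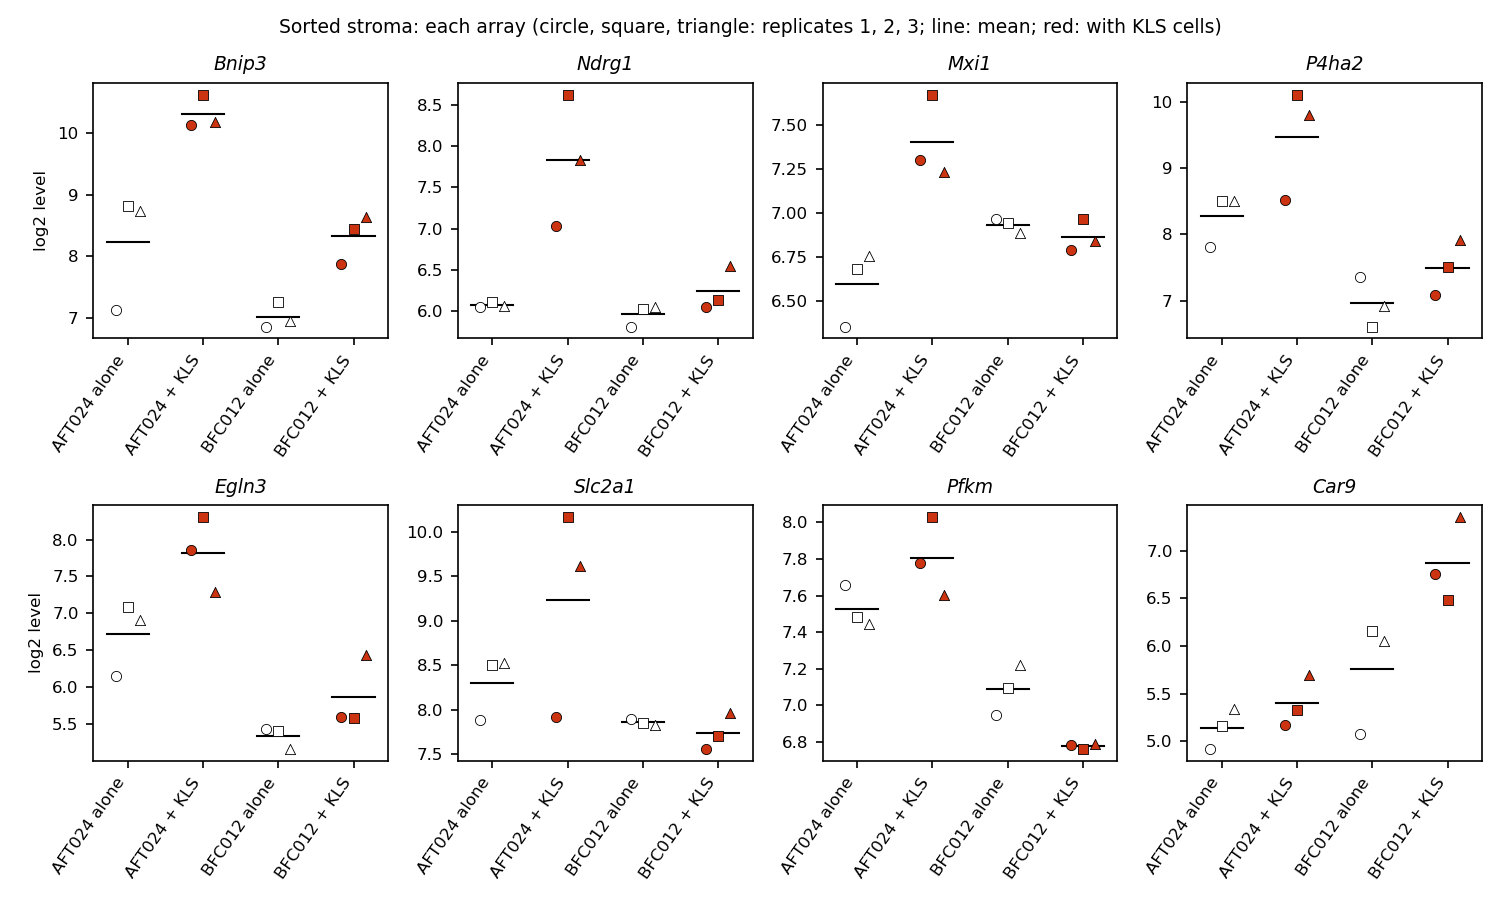
Log2 level of 8 members in each sorted array (circle, square and triangle for replicates 1, 2 and 3, a line at the mean, red with KLS cells and white alone). Bnip3, Ndrg1 and Egln3 are higher with KLS cells in every array of either clone, and Mxi1 and P4ha2 in AFT024 only. Car9 is highest in BFC012 with KLS cells, while the first AFT024 array with KLS cells lies well below the other 2 for Slc2a1 and P4ha2.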

How the data were processed

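Each of the 51 samples is 1 array of total RNA. The deposited values are log2 signals per probe set, for which the submitters' processing notes name RMA and Partek, with no version. Per the labels, RNA was extracted with Trizol. The array limits precision by its number, 3 per group, and no counting depth applies. Of 35556 probe sets 21789 name 1 gene symbol and 1621 several, and only the former were used. Arrays whose quantiles differed were taken as separately normalized sets, and no level was compared across sets.

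Differences were fitted with limma 3.58.1 in R 4.3.3 (lmFit, eBayes), in 1 fit to the 39 confluent arrays and 1 to the 12 sorted arrays, with p-values adjusted by Benjamini-Hochberg over all 19938 genes and called at 0.05. The scripts were tested on simulated data. Members and gene lists were chosen with earlier results of these data known. Per comparison, array values are given for up to 8 called members with the largest difference whose arrays did not overlap, or for the 3 members of smallest p where fewer than 3 qualified, and for the other lists up to 2 called genes with the largest difference. Members described across lines, in the fetal liver grouping or for near-threshold values, were named after their values were seen. The fetal liver grouping, the tests between pairs, the dimmest probe set of each gene and leaving out the first arrays grown alone were also chosen after seeing the data.

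Replicate numbers are shared between groups. Numbers were taken to pair arrays where same-numbered arrays deviated together at a correlation over 0.1 for all 3 numbers, which held for UG26.1B6 with UG26.3B5 (0.535, 0.327 and 0.468), BMC9 with BMC10 (0.323, 0.116 and 0.435) and the sorted cultures grown alone (0.671, 0.517 and 0.466). The block was fitted to the 6 arrays of a confluent pair or to the 12 sorted arrays. Plots come from Python 3.11.15 and matplotlib 3.10.9.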

Additional observations from a re-analysis of the deposited data

Results flagged for a closer look

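The differences of some members ran in opposite directions in 2 pairs of confluent lines, each called in both. The test of the difference between the pairs (limma, adjusted over all genes) was passed as well. Genes already called in opposite directions in the same fit are almost certain to pass it, so it adds no support. Values are the first pair's log2 difference minus the second's, and all rest on 3 arrays per line and on the fit without the replicate block. Replicate numbers were taken to pair the arrays of the AGM and BM pairs, less clearly in the BM pair. With the block Slc2a1 did not pass in either (adjusted p = 0.0519 and 0.1), nor did Pgk1 (0.0639) and Aldoa (0.189) in the BM pair. The opposite calls of these 3 genes that involve the AGM or BM pair are thus lost there.

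Between the AGM and FL pairs this held for Aldoc (3.00), Egln3 (-1.46), Pfkm (-1.01) and Vegfa (-0.98). In a fit to only the 6 arrays of the AGM pair no member was called higher, so the Aldoc call is lost there. Between the AGM and BM pairs it held for Slc16a3 (-1.24), P4ha2 (-1.21) and Slc2a1 (-0.59), and between the AGM pair and 2012 against AFT011 for Pfkm (-0.88). Between the FL and BM pairs it held for Slc16a3 (-1.69), Pdk1 (-0.79) and Slc2a1 (-0.52).

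The 2 FL pairs disagreed on Egln3 (1.84), Vegfa (1.60), Pfkp (1.59) and Pgk1 (0.84), although both set a supportive line against a non-supportive line of the same tissue. Between the BM pair and 2012 against AFT011 the genes were P4ha1 (1.15), Slc2a1 (0.61), Pgk1 (0.59) and Aldoa (0.47).

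Opposite calls were common among all genes too. Of members called in both pairs, 4 of 6 ran opposite between AGM and FL (58.4% of all such genes), 3 of 3 between AGM and BM (47.8%), 1 of 4 between AGM and 2012 against AFT011 (34.8%), 3 of 7 between FL and BM (52.9%), 4 of 9 between the FL pairs (43.3%) and 4 of 7 between BM and 2012 against AFT011 (46.5%).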

How the results depend on the processing

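Counts of called members stayed within 1.5 times of the reported count under every alternative run for the FL, 2012 against AFT011, OP9 and AM pairs, for the F tests and for support across lines. Without 1 array they were 12 to 14, 13 to 15, 13 to 16, 11 to 13, 30 to 31 in set A, 25 to 27 in set D, and 0. Other counts moved. The AGM count of 8 became 3 in a fit to its 6 arrays, 4 in a fit to its set and 4 to 8 without 1 array. The BM count of 15 became 6 in a fit to its 6 arrays and 11 to 16 without 1 array. For the sorted cultures alone the 7 became 4 in a fit to 6 arrays, 12 without the first arrays of both groups and 1 to 12 without 1 array. With KLS cells the 16 became 10 to 24 without 1 array. The effect of KLS cells in AFT024 gave 0 in a fit to 6 arrays and 0 to 7 without 1 array, in BFC012 2 without the first arrays grown alone and 0 to 1 without 1 array, and the interaction 0 to 1. Fits to 6 arrays have fewer samples and a spread of their own, and their counts moved both ways. The AM count rose from 15 to 18 and the count with KLS cells from 16 to 20. The cause of these changes was not tested. With the replicate block, where numbers were taken to pair the arrays, the AGM count was 11 and the BM count 10. Mxi1 across lines turned from -0.24 to 0.086 without the normalization set as a term, and neither value passed.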
